A study of Mus musculus with 9 samples.

Results

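A set of 10 transcription factors that specify or mark endothelial cells, the cells that line blood vessels, was followed across mouse livers and liver angiosarcoma cell lines: Erg, Fli1, Sox7, Sox17, Sox18, Tal1, Lyl1, Gata2, Gata4 and Klf2. They were chosen by name and are 10 of the 19938 genes with a value on the arrays. Each had a single probe set assigned to its symbol alone, so no choice between probe sets was needed. Angiosarcoma is a cancer of vessel-lining cells, so the question for these genes is whether the lines carry the factors of the cell type they are labelled as.

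Gene expression was measured in 3 groups of 3 arrays. The WT livers came from mice with loxP-flanked Notch1 and no Cre, the KO livers from mice with the same floxed allele plus MxCre. The mice, C57Bl/6 in background, were given 300 µg of poly(I:C), a synthetic double-stranded RNA, at the age of 4 weeks, on days 0, 3 and 6; this sets off the interferon response that drives MxCre, which then removes the exon for the signal peptide of Notch1. MxCre is not restricted to endothelial cells, and only the KO mice carried it, so an effect of Cre cannot be told apart from that of the deletion. The AS cell lines, each derived separately, were grown from liver endothelial cells of knockout mice with a visible angiosarcoma and passed through long culture that selected for unusual growth. The labels name liver as the source of the WT and KO samples, while the shared extraction protocol speaks of PHH without explanation. The age of the livers at collection is not stated in the sources used here. Values are log2 expression per probe set, so a difference of 1 is a doubling, and they can be compared between arrays for 1 gene but not between genes.

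Endothelial identity is held by several families of transcription factors that act together on vessel genes. ERG and FLI1 belong to the ETS family, which binds a GGAA core present in most endothelial enhancers, and keep junction and receptor genes such as Cdh5 active. SOX7, SOX17 and SOX18 form the SOXF subgroup, which acts in vessel formation, arterial identity and lymphatic development. TAL1 and LYL1 are related basic helix-loop-helix proteins shared by endothelial and blood cells, and GATA2 works with them. GATA4 directs the sinusoidal character of the liver's own capillaries, and KLF2 is switched on by blood flow through MEF2 proteins and maintains a quiet endothelium.

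Promoter sequence is shown for 4 factors, because their windows hold core letters of the MEF2, ETS or GATA families of the same network. The RefSeq table (GRCm38.p6) held 9 windows of 250 bases before to 50 after a start site for 5 of the 10 factors: Erg, Tal1, Gata2, Lyl1 and Klf2. The stretch from 250 to 51 bases before the start is printed 5′ to 3′ on the gene's strand, with the match in capitals. Klf2 and Erg were among the factors lower in the AS lines, whereas Lyl1 and Tal1 gave small differences, so the set covers both patterns. Klf2 (chr8:72318812-72319011, plus strand) holds the MEF2 core, CTA and TAG around NNNN, 118 bases before the start:
Klf2: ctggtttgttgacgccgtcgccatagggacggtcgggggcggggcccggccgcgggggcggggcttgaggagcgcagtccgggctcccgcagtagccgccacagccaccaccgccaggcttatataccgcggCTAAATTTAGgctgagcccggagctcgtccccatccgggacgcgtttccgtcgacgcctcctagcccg
Lyl1 (chr8:84701207-84701406, plus strand) holds the ETS letters CCGGAA, with a match on each strand, 181 and 67 bases before the start:
Lyl1: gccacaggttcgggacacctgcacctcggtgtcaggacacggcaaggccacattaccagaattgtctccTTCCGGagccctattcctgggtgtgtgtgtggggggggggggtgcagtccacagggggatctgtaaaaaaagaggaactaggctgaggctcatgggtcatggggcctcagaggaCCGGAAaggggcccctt
Tal1, first window (chr4:115056176-115056375, plus strand), holds the GATA letters AGATAA on the opposite strand, 205 bases before the start:
Tal1: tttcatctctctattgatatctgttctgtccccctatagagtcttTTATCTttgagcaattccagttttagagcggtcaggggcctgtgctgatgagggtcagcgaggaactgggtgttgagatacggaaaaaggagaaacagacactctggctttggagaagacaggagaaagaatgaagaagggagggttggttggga
Erg, most downstream of its windows (chr16:95459399-95459598, minus strand), also holds AGATAA on the opposite strand, 103 bases before the start:
Erg: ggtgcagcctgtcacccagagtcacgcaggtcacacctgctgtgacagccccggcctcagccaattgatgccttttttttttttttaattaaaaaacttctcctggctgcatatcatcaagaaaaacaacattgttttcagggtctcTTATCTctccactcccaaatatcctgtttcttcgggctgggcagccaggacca

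Of all 32851 promoter windows in the table, searched on both strands, 3.69% held the MEF2 letters, 14.9% the ETS letters and 11.2% the GATA letters. The shorter searches matched far more often: 31% of windows held the SOX letters ACAAT, 57.5% the KLF letters CACCC and 72.3% the E-box letters CANNTG. In the windows of these 5 factors, MEF2 letters occurred in Klf2 alone, ETS letters in Lyl1 alone, and GATA letters in the Tal1 and Erg windows shown. A match describes the letters in the window and does not show that a protein binds there.

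Before the factors, the labels were checked. Notch1, the deleted gene, stood at 11.69, 11.02 and 11.71 in WT livers 1 to 3 and at 7.84, 8.75 and 8.52 in KO livers 1 to 3; where its probes lie relative to the deleted exon was not analysed here. The endothelial markers of their label were lower in the AS lines than in the livers, and some lay near background. Cdh5, the junction protein VE-cadherin, was at 5.47, 5.66 and 5.45 in AS lines 1 to 3 against a mean of 12.91 ± 0.16 (SD, n = 3) in the KO livers, and the mean over 18 pan-endothelial genes was 6.32 to 6.53 in the lines and 11.56 to 12.06 in the KO livers. All 18 were lower in the lines than in the KO livers in limma, where 10.1% of all genes were lower and 11.4% higher. Not all were near background: Ptprb, an endothelial phosphatase, still read 9.51, 7.85 and 8.97 in AS lines 1 to 3, and Egfl7 7.49, 8.25 and 7.75. Some epithelial genes were bright: the bile duct keratin Krt19 read 11.82, 12.18 and 11.93 in the lines and 5.67 to 5.83 in the KO livers, and 6 of 7 cholangiocyte markers and 3 of 7 mesothelial markers (Msln, Upk1b and Upk3b) were higher. The epithelial marker Epcam did not follow, at 5.56 to 6.02 in the lines. Hepatocyte genes were mixed: Alb was bright at 12.31, 13.67 and 12.82 in AS lines 1 to 3, whereas Cyp2e1 read 5.23, 5.58 and 5.46. Tat (5.81 to 6.01) and Tdo2 (4.53 to 5.21) were also low in the lines. Of 12 hepatocyte markers, 2 were lower than in the KO livers and 0 higher, against 10.1% and 11.4% of all genes. AS line 2 stood apart with a hepatocyte marker mean of 10.17 against 8.32 and 7.98. These are measured levels and do not settle the identity of the lines. In the livers, KO replicates 1 and 3 had lower hepatocyte marker means (10.95 and 9.59) than KO replicate 2 (12.87), and WT replicate 1 had a T and NK cell marker mean of 6.64 against 8.94 and 8.95 in the other WT livers. The part of these differences in the results was not tested. In these bulk samples, fewer cells of a type and less RNA per cell cannot be told apart.

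Erg, an ETS factor found in nearly all endothelial cells, read 10.45, 10.26 and 10.26 in WT livers 1 to 3, 11.16, 10.39 and 11.07 in KO livers 1 to 3, and 6.28, 6.09 and 6.66 in AS lines 1 to 3. Its close relative Fli1, also active in blood cells, read 10.66, 10.39 and 10.36 in the WT livers, 10.79, 10.32 and 10.81 in the KO livers and 6.24, 6.36 and 6.33 in the lines. For both genes every AS line was far below every liver, and the liver groups overlapped. Within the KO livers, replicate 2 was the lowest for both.

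The SOXF genes repeated the order of the groups with smaller gaps for some members. Sox7 read 9.89, 9.59 and 9.57 in WT livers 1 to 3, 10.33, 9.91 and 10.23 in KO livers 1 to 3, and 6.13, 6.40 and 6.37 in AS lines 1 to 3. It was the single factor whose KO and WT livers did not overlap. Sox17, linked to arterial identity, read 8.22, 8.24 and 8.14 in the WT livers, 8.62, 8.13 and 8.47 in the KO livers, and 6.03, 6.32 and 5.95 in the lines. Sox18, linked to lymphatic vessel development, read 9.16, 8.81 and 8.86 in the WT livers, 10.46, 8.86 and 9.75 in the KO livers, and 6.63, 6.84 and 7.17 in the lines. The KO livers were spread over 1.60 log2 units for Sox18, the widest range of any factor in that group.

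Tal1, Lyl1 and Gata2, the factors shared with blood cells, differed little between livers and lines. Tal1 read 8.62, 8.76 and 8.70 in WT livers 1 to 3, 8.77, 8.47 and 8.99 in KO livers 1 to 3, and 7.66, 7.98 and 8.39 in AS lines 1 to 3, so that AS line 3 came within 0.07 of the lowest liver. Lyl1 read 7.67, 7.50 and 7.61 in the WT livers, 8.18, 7.63 and 7.84 in the KO livers, and 7.37, 7.42 and 7.40 in the lines. The lines were again lowest for Lyl1, but AS line 2 lay only 0.08 below the lowest liver. Gata2 read 8.61, 8.09 and 8.35 in the WT livers, 8.49, 8.18 and 8.15 in the KO livers, and 8.29, 8.32 and 9.39 in the lines. Its 3 groups overlapped, and AS line 3 was the highest of all 9 arrays.

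Gata4, the sinusoidal factor, read 11.13, 10.66 and 10.82 in WT livers 1 to 3, 11.43, 10.90 and 11.32 in KO livers 1 to 3, and 8.18, 7.62 and 8.28 in AS lines 1 to 3. Klf2, the flow-responsive factor, read 11.41, 10.50 and 10.45 in the WT livers, 10.95, 10.93 and 11.00 in the KO livers, and 7.09, 7.05 and 7.36 in the lines. For Klf2, WT replicate 1 stood 0.90 above the next WT liver while the KO livers lay within 0.07 of each other. Both genes separated the lines from all livers and left the liver groups overlapping.

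The arrays carry no detection calls, so the floor was described with 1027 olfactory receptor genes, which are mostly silent outside the nose. In the AS lines, Erg was brighter than 96.4 to 98.2% of them, Sox17 than 94.4 to 97.7%, and Gata4 than 99.6 to 99.9%. Among all genes of the same array, Erg ranked at 36.3 to 44.7% in the lines and 90.5 to 96.1% in the livers. Gata4 kept a middle rank of 56.3 to 65.6% in the lines, and Gata2 ranked at 64.3 to 80.9%. Lyl1 ranked at 54 to 54.5% in the lines and 55.2 to 64.2% in the livers, and Klf2 at 50 to 54% in the lines. The small difference of Lyl1 is therefore one between middle ranks and does not show that its transcript was retained. A value low in the ranking may be background, in which case the fold change understates the difference. Probe sets differ in affinity, so these ranks are a description of the arrays and not of transcript number.

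**Figure D1:**
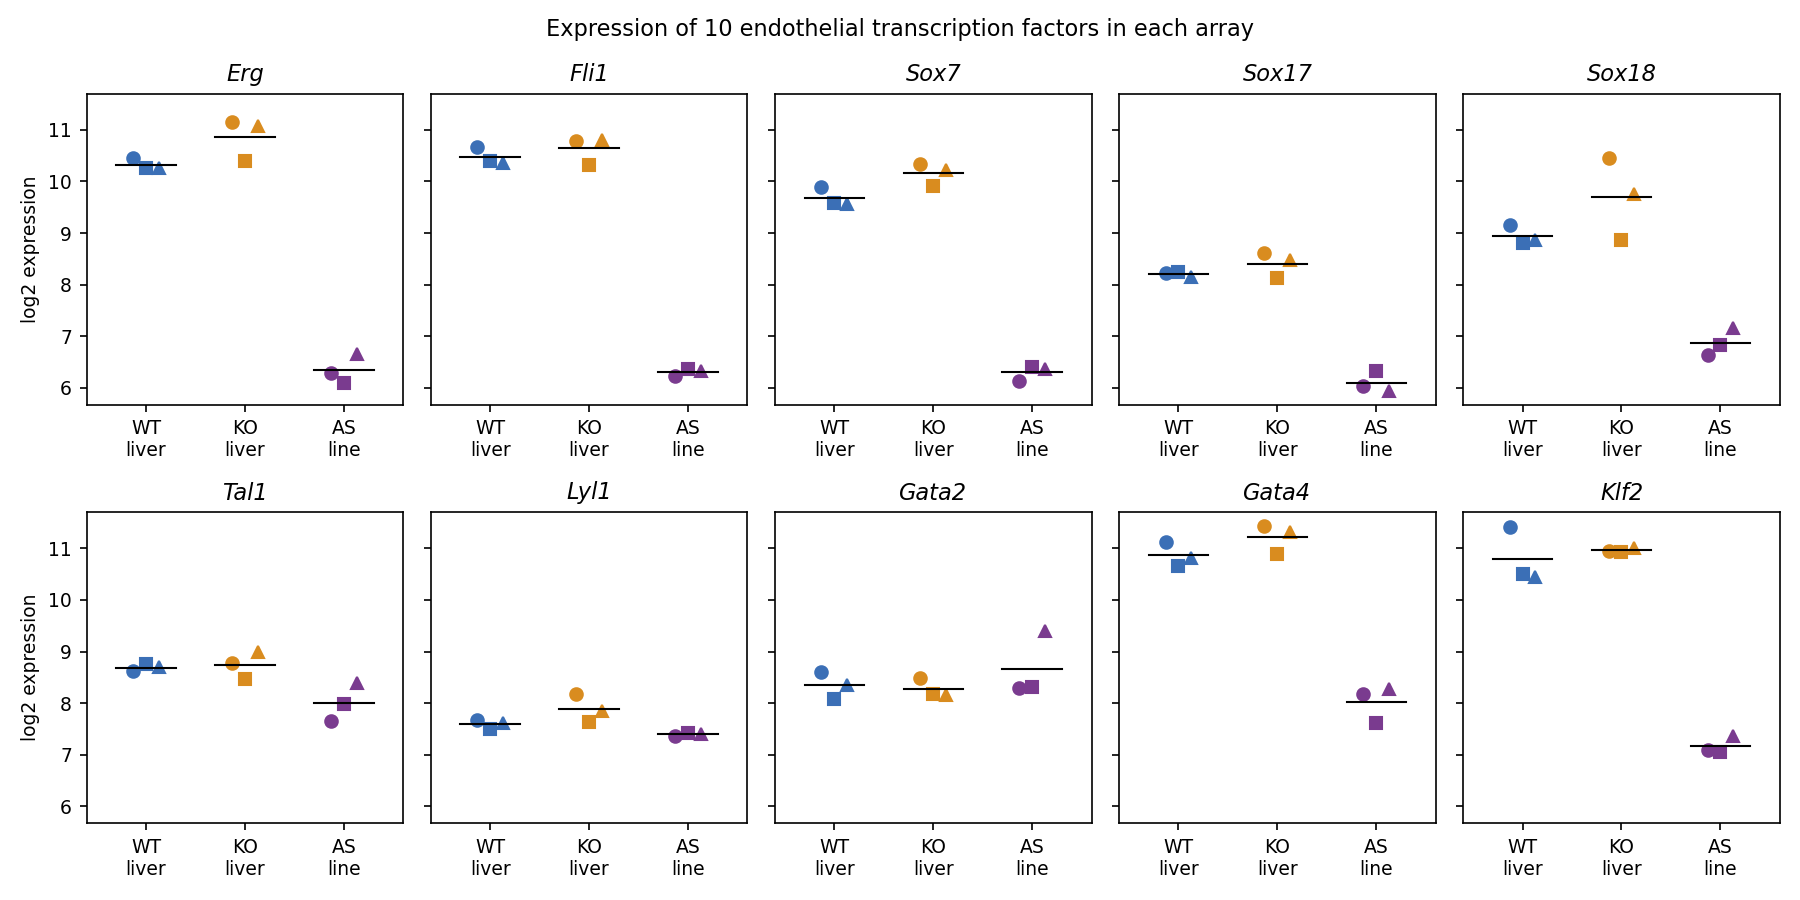
Log2 expression (vertical axis) of the 10 factors in each of the 9 arrays, grouped as WT liver, KO liver and AS cell line; each point is 1 array, the point shapes mark replicates 1, 2 and 3, and the bars mark group means. Erg, Fli1, Sox7, Gata4 and Klf2 drop by several log2 units in the lines, while Tal1, Lyl1 and Gata2 stay near their liver levels.

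The first comparison sets the AS lines against the KO livers, which share the Notch1 genotype. The lines also differ from these livers in tumour origin, long culture and the mix of cell types, which cannot be told apart here. In the lines 7 factors were lower: both ETS factors, all SOXF factors, Gata4 and Klf2. Erg was 23.1-fold lower, Fli1 20.1-fold, Sox7 14.5-fold and Klf2 13.9-fold. Gata4 was 9.12-fold lower, Sox18 7-fold and Sox17 4.95-fold. Tal1, Lyl1 and Gata2 did not pass the test.

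Of the 10 factors, 7 were lower and 0 higher at an adjusted p under 0.05 in limma with Benjamini-Hochberg adjustment over all genes, where 10.1% of all genes were lower and 11.4% higher. The groups did not overlap for 9 of 10 factors, against 16.7% of all genes with the lines below every KO liver. The median log2 difference was -3.00 over the factors and 0.055 over all genes. For Erg the log2 difference was -4.53 (SE 0.259, adjusted p = 0.000406 in limma), for Fli1 -4.33 (SE 0.153, adjusted p = 9.77e-05 in limma). For Klf2 it was -3.79 (SE 0.102, adjusted p = 5.11e-05 in limma), the smallest adjusted p of the set. Sox18 had the widest error among those called, at -2.81 (SE 0.424, adjusted p = 0.00935 in limma). Sox7 differed by -3.86 (SE 0.141), Gata4 by -3.19 (SE 0.232) and Sox17 by -2.31 (SE 0.169), with adjusted p-values in limma of 0.000108, 0.000876 and 0.000898.

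Tal1 differed by -0.73 (95% interval -1.32 to -0.15, adjusted p = 0.0849 in limma) and Lyl1 by -0.49 (-0.87 to -0.11, adjusted p = 0.08 in limma). For these 2 genes the call depended on single arrays and on the model. Tal1 passed without AS line 3 (-0.93, adjusted p = 0.0449 in limma) and with array weights (0.0494), Lyl1 without KO replicate 2 (-0.62, adjusted p = 0.0415 in limma), and both with all 9 arrays in one limma fit (adjusted p = 0.0286 and 0.0309). Gata2 differed by 0.39, with an interval from -0.44 to 1.22 that includes values above a doubling (adjusted p = 0.477 in limma). Without AS line 3 the Gata2 difference was 0.03. With 3 arrays against 3, an exact permutation test of a single gene cannot give a 2-sided p below 0.1, and it gave 0.1 for the 9 factors whose groups did not overlap.

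The lines were next set against the WT livers. The same 7 factors were lower, joined by Tal1. Fli1 fell the furthest at 17.9-fold, followed by Erg at 15.8-fold, Klf2 at 12.3-fold and Sox7 at 10.4-fold. Gata4 was 7.18-fold lower, Sox17 4.30-fold and Sox18 4.16-fold, and Tal1 1.60-fold. Lyl1 and Gata2 did not pass.

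In this comparison 8 of 10 factors were lower and 0 higher at an adjusted p under 0.05 in limma, against 11.1% and 17.6% of all genes. For 9 of 10 the lines lay below every WT liver, against 19.5% of all genes, and the median difference was -2.47 for the factors and 0.024 for all genes. Fli1 differed by -4.16 (SE 0.112, adjusted p = 1.77e-05 in limma), Erg by -3.98 (SE 0.166, adjusted p = 6.66e-05 in limma) and Sox7 by -3.38 (SE 0.132, adjusted p = 5.2e-05 in limma). Klf2 differed by -3.62 (SE 0.281), Gata4 by -2.84 (SE 0.219), Sox17 by -2.10 (SE 0.12) and Sox18 by -2.06 (SE 0.175), with adjusted p-values in limma from 0.000205 to 0.000833. This comparison uses the same AS arrays as the one with the KO livers, so the agreement of their directions is not independent.

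Tal1 was just inside the threshold at -0.68 (SE 0.195, adjusted p = 0.0496 in limma). Its call was lost when any of AS line 1 (adjusted p = 0.0716), AS line 2 (0.11), WT replicate 1 (0.11), WT replicate 2 (0.149) or WT replicate 3 (0.135) was left out of the limma fit, with the replicate number as a block (adjusted p = 0.0673), and with an intensity trend and robust hyperparameters (0.0624). Lyl1 differed by -0.20 (95% interval -0.40 to 0.01, adjusted p = 0.138 in limma). Gata2 differed by 0.31 (-0.52 to 1.14, adjusted p = 0.537 in limma), a value that rests on AS line 3 and was -0.05 without it.

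**Figure D2:**
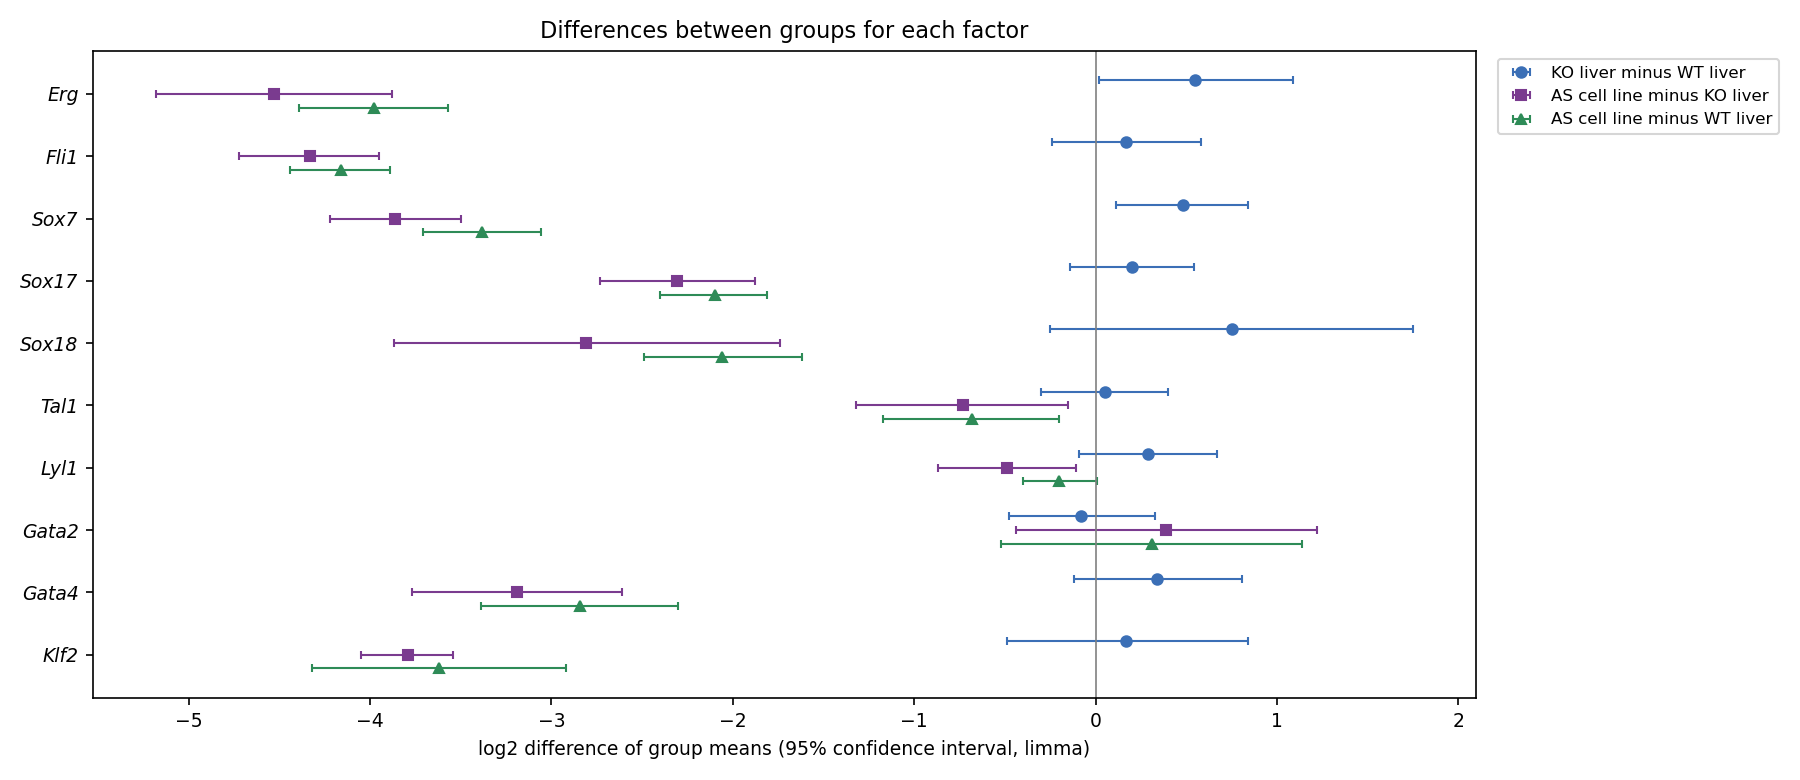
Log2 difference of group means (horizontal axis) for each factor in the 3 comparisons, with 95% confidence intervals from limma; circles are KO minus WT liver, squares AS line minus KO liver and triangles AS line minus WT liver. Both AS comparisons lie at or left of -1.62 with their whole intervals for 7 factors, while the values of Tal1, Lyl1 and Gata2 and all KO minus WT values lie between -0.73 and 0.75.

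KO and WT livers were compared to see how the factors stand after loss of Notch1 in the liver. No factor passed the threshold, and neither did any other gene on the arrays. Notch1 itself, 8.6-fold lower in the KO livers, missed it as well (-3.10, SE 0.302, adjusted p = 0.0995 in limma). A factor that did not pass is therefore not shown to be unchanged. The largest differences were those of Sox18, which was 1.68-fold the WT level, Erg at 1.47-fold and Sox7 at 1.39-fold. Differences were positive for 9 of the 10 factors and negative for Gata2.

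At an adjusted p under 0.05 in limma, 0 of 10 factors were higher and 0 lower, as were 0% of all genes. At an unadjusted p under 0.05 in limma, Erg and Sox7 were higher, 2 of 10 factors against 17.3% of all genes, and 0 were lower, against 5.17%. Sox7 alone had KO livers above every WT liver, 1 of 10 against 19.2% of all genes, and 0 lay below all of them, against 11.1%. The shares of higher factors by these rules are near those of all genes. Positive differences were more common among the factors, 9 of 10 against 49.8% of all genes (negative: 1 of 10 against 50.2%), with a median of 0.25 against -0.001. That contrast depended on the processing: with dim genes left out, 70.1% of genes were positive with a median of 0.173, and with 75th percentile scaling 6 of 10 factors and 29.3% of genes were. Sox18 differed by 0.75 (SE 0.403, adjusted p = 0.322 in limma), Erg by 0.55 (SE 0.216, adjusted p = 0.213 in limma) and Sox7 by 0.48 (SE 0.146, adjusted p = 0.152 in limma). The interval for Sox18 ran from -0.25 to 1.75, which includes no rise at all.

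The other factors differed by less. Gata4 differed by 0.34 (SE 0.186), Lyl1 by 0.29 (SE 0.152) and Sox17 by 0.20 (SE 0.136). Fli1 and Klf2 each differed by 0.17, with errors of 0.166 and 0.267. Tal1 differed by 0.05 (SE 0.141) and Gata2 by -0.08 (SE 0.164), and the adjusted p-values of these 7 in limma ran from 0.312 to 0.833.

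For Erg, Sox18 and Gata4, the difference lay mostly in KO replicates 1 and 3. This did not hold for every factor: Klf2 was above the WT mean by 0.16, 0.14 and 0.21 in KO replicates 1 to 3. Sox7 was above it by 0.65, 0.23 and 0.55. Erg was above the WT mean by 0.83 in KO replicate 1 and 0.75 in replicate 3, but by 0.07 in replicate 2. Sox18 was above it by 1.52 and 0.81 in replicates 1 and 3 and below it by a difference of -0.08 in replicate 2, and Gata4 was above by 0.56, 0.45 and 0.03 in replicates 1, 3 and 2. The mean over 18 pan-endothelial genes moved the same way, with differences from the WT mean of 0.39, 0.45 and -0.05 in replicates 1, 3 and 2. The hepatocyte marker mean moved the other way, with -1.52, -2.87 and 0.40 in the same order. With the pan-endothelial mean as a covariate, the Erg difference was 0.15 (SE 0.0951), that of Sox18 0.09 (SE 0.303) and that of Gata4 0.04 (SE 0.144). With the hepatocyte mean they were 0.26 (SE 0.147), 0.34 (SE 0.39) and 0.12 (SE 0.157). The pan-endothelial list holds genes that ERG and FLI1 keep active, such as Cdh5. That covariate therefore cannot separate a change in the factors from one in endothelial cell content, and the cause was not tested. Erg passed without KO replicate 2 (0.79, adjusted p = 0.0218 in limma), as did 8.38% of all genes in the higher direction. When arrays were weighted by their fit, 6 factors were called higher (Erg, Fli1, Sox7, Sox18, Gata4 and Lyl1). This setting gave WT replicate 1 and KO replicate 2 the lowest weights, 0.274 and 0.315, and called 19.6% of all genes higher.

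**Figure D3:**
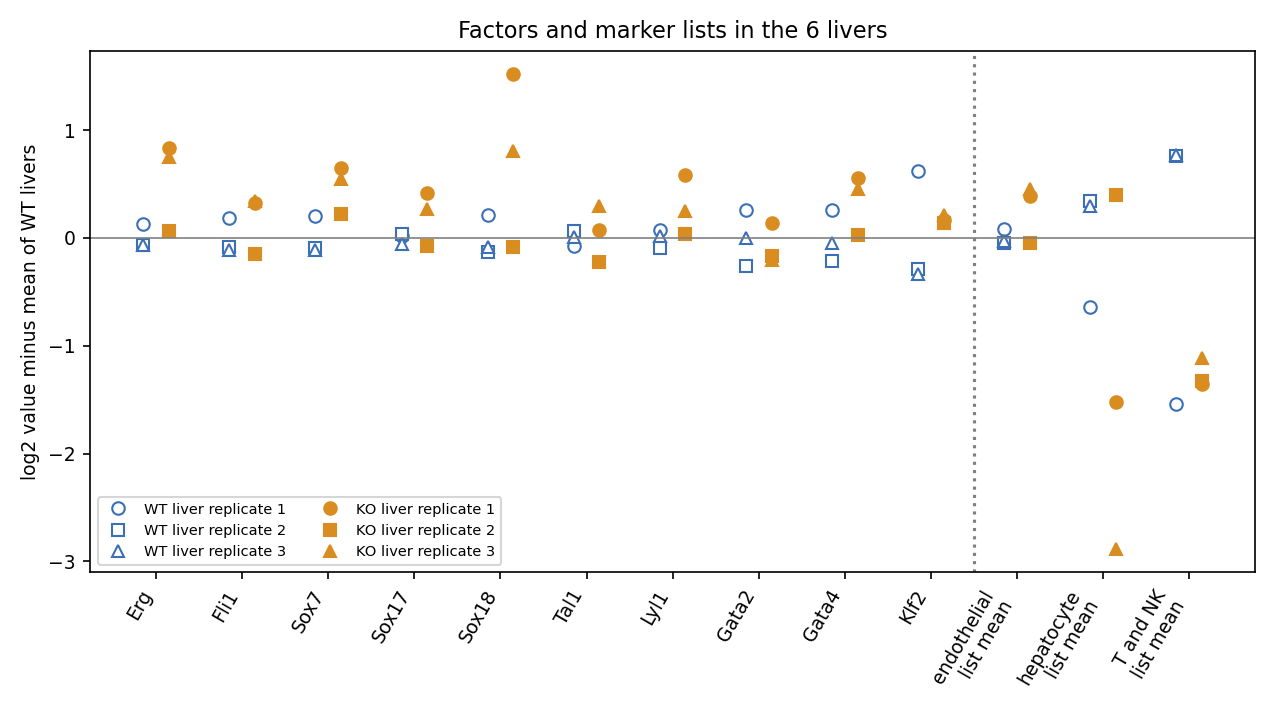
Log2 value minus the mean of the WT livers (vertical axis) for the 10 factors and for the means of the pan-endothelial, hepatocyte and T and NK marker lists; open symbols are WT livers, filled symbols KO livers, and shapes mark replicates 1 to 3. KO replicates 1 and 3 lie above the WT mean for Erg, Sox7, Sox18 and Gata4 and below it for the hepatocyte list, while KO replicate 2 lies near 0 for Erg, Sox18 and Gata4.

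Beyond the 10 factors, 23 other endothelial transcription regulators were examined. Against the KO livers, 12 of 23 were lower in the AS lines and 1 higher in limma, with a median of -1.13. Of all genes, 10.1% were lower and 11.4% higher in this comparison. Bcl6b, a repressor enriched in endothelium, showed the largest fall at -4.64 (SE 0.279), from 11.30, 10.67 and 11.56 in the KO livers to 6.46, 6.28 and 6.88 in the lines. Mef2c, of the MEF2 family upstream of Klf2, differed by -3.65 (SE 0.226), and Lmo2, the bridging protein of TAL1 and GATA complexes, by -3.36 (SE 0.179). Hhex, a homeobox factor of endothelium and of the liver and bile duct epithelium, was the one higher, by 0.97 (SE 0.154). Lmo2 and Tcf4, a helix-loop-helix partner, were therefore lower in the lines while Tal1 itself differed little: of 8 partners of the TAL1 complex, 3 were lower (Lmo2, Tcf4 and Cbfa2t3) and 1 higher, Runx1. The Runx1 difference of 1.28 (adjusted p = 0.0227 in limma) lost its call without AS line 2 (adjusted p = 0.0513), AS line 3 (0.0608), KO replicate 1 (0.0793) or KO replicate 3 (0.0866).

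In the comparison of KO with WT livers, 0 of 23 regulators and 0 of 8 TAL1 partners passed in limma. Bcl6b differed by 1.23 (SE 0.246) and the venous factor Nr2f2 by 0.86 (SE 0.166), each with an adjusted p of 0.102 in limma. Foxc2, a forkhead factor of lymphatic and venous valves, went the other way at -0.96 (SE 0.264, adjusted p = 0.134 in limma), with KO livers at 6.16 to 6.30 below the WT livers at 6.65 to 7.69. KO livers 1 to 3 read 11.30, 10.67 and 11.56 for Bcl6b, all above the WT livers at 10.13, 9.74 and 9.95. Without KO replicate 2, Bcl6b and Nr2f2 passed, at adjusted p = 0.0191 and 0.0415 in limma. Among 6 genes linked to KLF2, 0 passed between KO and WT livers: the gap junction gene Gja4 differed by -2.25 (SE 0.679, adjusted p = 0.149 in limma) and Thbd, the anticoagulant receptor thrombomodulin, by -0.54 (SE 0.162, adjusted p = 0.147 in limma). Of the same 6, 3 were lower in the lines than in the KO livers and 0 higher, against 10.1% and 11.4% of all genes. S1pr1, the sphingosine phosphate receptor of quiet vessels, differed by -5.63 (SE 0.16) and Nos3, endothelial nitric oxide synthase, by -3.46 (SE 0.157). The third, Gja4, differed by -3.74 (adjusted p = 0.0178 in limma) and was not called without AS line 2 (adjusted p = 0.055), AS line 3 (0.0548) or KO replicate 3 (0.0718). In the lines S1pr1 read 6.04, 5.73 and 6.26 and Gja4 6.24, 5.79 and 5.89, around the 95th percentile of the olfactory genes on those arrays (5.78, 5.9 and 5.99), so their differences may be understated.

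Relatives of the factors from the same families were examined next. Against the KO livers, Sox9, a factor of bile duct and progenitor cells, was the 1 of 12 other SOX genes that passed, higher in the lines at 10.22 ± 0.31 (SD, n = 3) against 7.17 ± 0.24 (SD, n = 3), a difference of 3.05 (SE 0.203, adjusted p = 0.000653 in limma). Gata6, a GATA factor of gut, liver and mesothelial tissue, read 10.67, 11.25 and 11.18 in AS lines 1 to 3 against 8.94, 9.23 and 8.43 in the KO livers, higher by 2.17 (SE 0.261, adjusted p = 0.00459 in limma), whereas Gata4 was lower by the amount given above. In all, 2 of 4 other GATA genes were higher and 0 lower, the second being Gata3, whose call was lost without KO replicate 1 (adjusted p = 0.0592 in limma) or KO replicate 3 (0.0651). Klf5, an epithelial KLF gene, read 9.15, 9.05 and 9.22 in the lines against 6.92, 7.03 and 6.72, higher by 2.25 (SE 0.105, adjusted p = 0.000221 in limma). Of 12 other KLF genes 1 was higher, Klf5, and 1 lower, Klf6. Of all genes, 11.4% were higher and 10.1% lower, so the share of higher SOX genes and both KLF shares are near those of all genes.

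Among ETS relatives, more were lower than higher in the lines. Of 19 relatives measured, 7 were lower in the lines than in the KO livers and 1 higher, with a median of -0.46. The shares over all genes were 10.1% lower and 11.4% higher, so the share of higher ETS relatives is not above that of all genes. Spi1, the PU.1 factor of macrophages and other blood cells, differed by -5.35 (SE 0.306). It read 5.28, 5.68 and 5.01 in the lines, below that percentile on each array, so the value is not a measured level there and the difference may be understated. Beside it, 10 of 10 Kupffer cell and macrophage markers were also lower, with list means of 5.93 to 6.19 in the lines and 11.35 to 11.93 in the KO livers. Ets1, present in endothelium and lymphocytes, differed by -2.30 (SE 0.246). Elf3, an epithelial ETS gene, was higher by 1.80 (SE 0.142). Against the WT livers, Sox11 (2.61), Sox4 (2.57), Sox9 (2.20), Gata6 (1.98), Klf5 (1.72) and Elf3 (1.42) were all higher in the lines in limma. Spi1 (-5.09), Klf12 (-2.26) and Ets1 (-2.21) were lower. By family, 2 of 19 ETS, 3 of 12 SOX, 1 of 4 GATA and 1 of 12 KLF relatives were higher there. In the same order 6, 0, 0 and 1 were lower. Of all genes, 17.6% were higher and 11.1% lower in that comparison. Sox4 (1.70, adjusted p = 0.0663 in limma) and Sox11 (0.87, adjusted p = 0.47 in limma) did not pass against the KO livers.

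**Figure D4:**
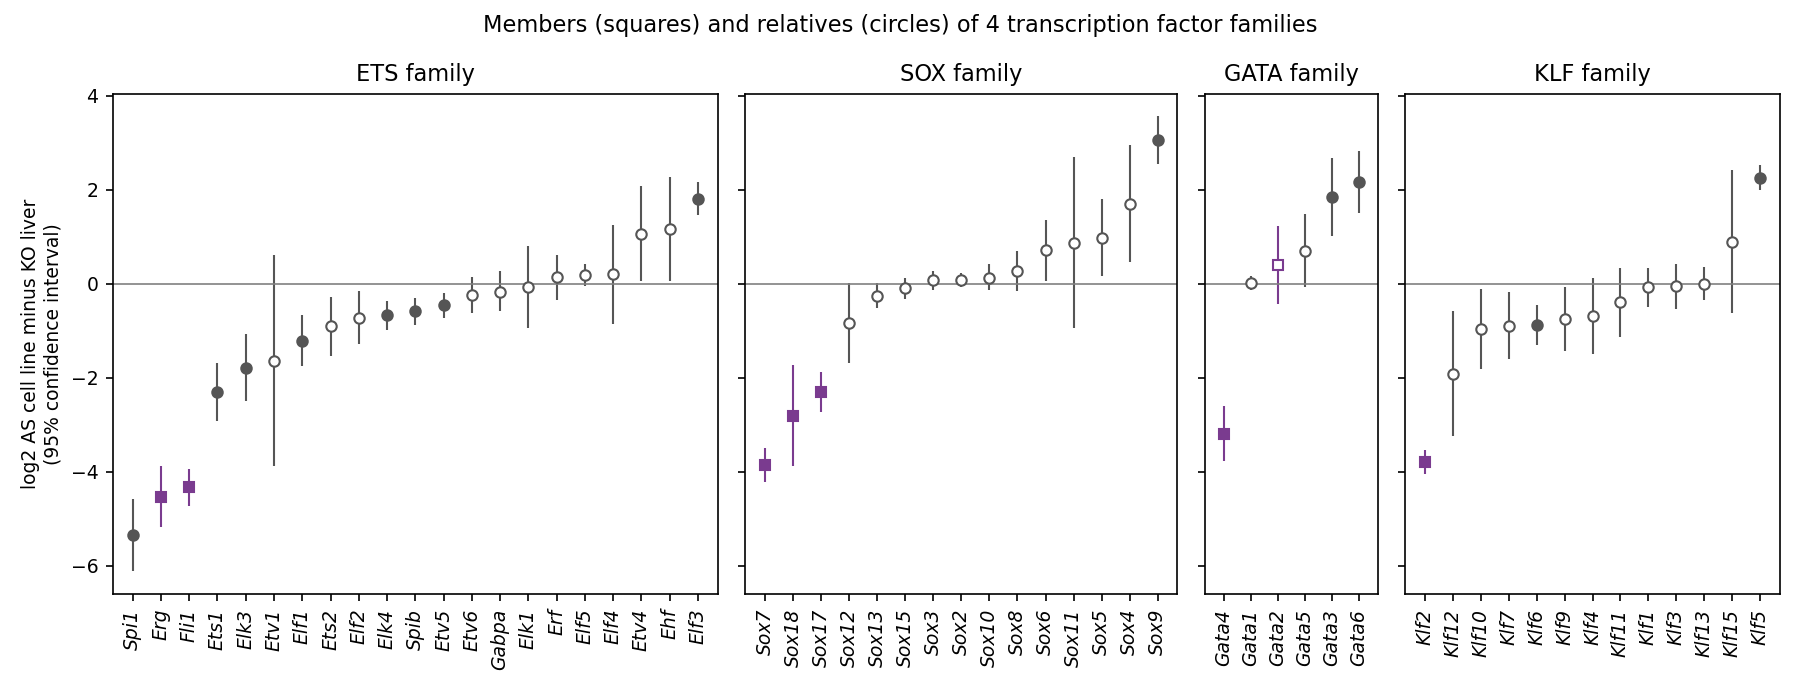
Log2 difference of AS lines minus KO livers (vertical axis) with 95% confidence intervals from limma for the ETS, SOX, GATA and KLF genes; squares are the factors, circles their relatives, and filled symbols passed an adjusted p of 0.05. The factors of the SOX and KLF families lie below all their relatives, and Sox9, Gata6, Klf5 and Elf3 lie at the upper end of their families.

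The blood cell markers that share factors with endothelium were checked beside Tal1, Lyl1 and Gata2. Of 8 erythroid and megakaryocyte markers, 4 (Epor, Alas2, Itga2b and Pf4) were lower in the lines than in the KO livers and 0 higher. The shares over all genes in this comparison were 10.1% lower and 11.4% higher. The mean of this list was 6.22 to 6.61 in the lines and 7.22 to 7.49 in the KO livers. Of 6 mast cell and basophil markers 1 was lower, the receptor Kit, with list means of 5.03 to 5.25 and 5.64 to 5.70. These means lie below the 95th percentile of the olfactory genes on each array (5.78 to 5.99 in the lines, 5.87 to 5.91 in the KO livers). Kit read 10.03 to 10.74 in the KO livers and the other markers 4.32 to 5.37, so this list says little about mast cells. The part of such blood cells in the liver levels of Tal1, Lyl1 and Gata2 was not tested. Of 10 stellate cell markers, 8 were lower in the lines than in the KO livers and 0 higher. The part of stellate cells in the liver level of Gata4 was not tested.

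Genes with the most similar profile were sought by the root mean square difference of log2 values over the 9 arrays after subtracting each gene's mean. Erg was nearest to Arhgap31 (0.171) and to Cldn5 (0.175), a tight junction gene of endothelium. Fli1 was nearest to Tmem204 (0.102) and Fgd5 (0.111), Sox7 to Tcf7l1 (0.0951) and Exoc3l2 (0.147), and Gata4 to Btnl9 (0.148) and Rasal2 (0.155). Sox17 was nearest to Sh3tc1 (0.0653) and Prkce (0.167), Sox18 to Mfng (0.226) and Gypc (0.234), and Klf2 to Casp1 (0.187) and Sema6d (0.196). For the factors that differed little, the nearest were Vgll4 (0.0952) and Lrrc58 (0.113) for Tal1, Tet2 (0.0611) and Taok1 (0.0928) for Lyl1, and Tmem117 (0.109) and Reg1 (0.119) for Gata2. Within the set, Erg and Fli1 were each other's nearest factor (0.224), as were Sox17 and Sox18 (0.411) and Tal1 and Lyl1 (0.301). Sox7 and Klf2, of different families, were also each other's nearest factor (0.249). The nearest factor to Gata4 was Sox7 (0.361), and the nearest to Gata2 was Lyl1 (0.476). These distances are a description of the 9 arrays, which include large differences between lines and livers for 7 of the factors.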

How the data were processed

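Total RNA of 6 livers and 3 cell lines was labelled with a whole-transcript kit, per the labels' protocols, and each array was taken as 1 independent replicate. The values deposited by the authors are on a log2 scale, 1 per probe set, and come from RMA in the oligo package per the submitters' processing notes; versions are not stated there. RMA brings all arrays to nearly the same distribution (array medians 6.53 to 6.63), which hides any change shared by most genes. Precision is limited by the number of arrays.

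Of 35556 probe sets, 21789 carried 1 gene symbol in the platform annotation, 1621 several, and 12146 were not named. The gene IDs of 21698 were found in the RefSeq table, which changed 0 symbols. Each gene kept its probe set of highest mean over the 9 arrays, giving 19938 genes.

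Each pair of groups was fitted on its 6 arrays with limma 3.58.1 (lmFit and eBayes, 2-sided, no covariate) in R 4.3.3, p-values adjusted by Benjamini-Hochberg across all genes, threshold 0.05. The fits were tested on simulated data. The members and the gene lists were chosen with earlier results of these data known, so a list's count is a description. The text names all 10 factors, up to 3 genes of largest absolute difference per list and comparison, and the 2 nearest profiles per factor. Hhex, Klf6 and other genes named to account for a small count were chosen after their values were seen. Ass1, Lck, Gp1bb, Spp1 and Fev were not analysed here. Promoter letters were searched in RefSeq windows. Alternatives covered scaling, normalization, probe set choice, dim genes, the model's variance, array weights, a replicate block, covariates, thresholds and leaving out each array. Same-numbered arrays were not clearly paired. The correlations of their deviations were 0.31, 0.43 and -0.39 for KO and WT livers, against -0.48 to 0.47 for differently numbered arrays. For lines and KO livers they were 0.24, 0.34 and 0.07, all positive, against -0.3 to 0.2. For lines and WT livers they were 0.04, 0.17 and -0.16, against -0.17 to 0.15.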

Additional observations from a re-analysis of the deposited data

How the results depend on the processing

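The fall of Erg, Fli1, Sox7, Sox17, Sox18, Gata4 and Klf2 in the AS lines passed the threshold in limma against both liver groups under all alternatives run. The count of lower factors ran from 7 to 9 against the KO livers and from 7 to 8 against the WT livers, and from 7 to 8 in both when single arrays were left out. In the comparison of KO with WT livers, the count of higher factors was 6 with array weights, which called 3905 of 19938 genes higher, and ran from 0 to 1 when single arrays were left out, with Erg the one called without KO replicate 2, where 1671 genes were. The count of lower factors there was 0 throughout. With the replicate number as a block, 0 factors passed in KO against WT livers, 7 were lower against the KO livers and 7 against the WT livers; Tal1 was the call lost.

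Signs turned for small differences. In KO against WT livers, Fli1 was -0.01, Klf2 -0.01 and Tal1 -0.13 with 75th percentile scaling, which shifted the median over all genes to -0.183, and Tal1 was -0.12 with repeated quantile normalization. Gata2 was 0.14 with array weights. With single arrays left out, Gata2 ran from -0.21 to 0.05, the latter without WT replicate 1, and Tal1 from -0.07, without KO replicate 3, to 0.19. With the pan-endothelial mean as a covariate, Fli1 was -0.13, Sox17 -0.01, Tal1 -0.16 and the tip cell gene Apln -0.10; with the hepatocyte mean, Fli1 was -0.06 and Tal1 -0.12. In AS lines against WT livers, Gata2 ran from -0.05, without AS replicate 3, to 0.50 when single arrays were left out. The cause of these changes was not tested. Leaving out dim genes shifted this median to 0.173, 0.14 and 0.313 in KO against WT livers, lines against KO livers and lines against WT livers. Without detection calls, low values in the lines limit the folds for Erg, Fli1, Sox7 and Sox17 and for marker genes such as Cdh5, Spi1, S1pr1 and Gja4.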
